A study of Drosophila melanogaster with 3 samples.

Results

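The gene u-shaped (ush), its neighbour cabut (cbt) and the 5 GATA factor genes srp, pnr, GATAd, GATAe and grn were examined for binding of HLHm7, 7 of the 13945 protein-coding genes on the major chromosome arms. A region belonged to a gene when its summit lay in the gene's span or within 2 kb upstream. Under this rule 8 of the 2397 optimal peaks belonged to these genes. All 8 lay in the window of ush, and 2 of them also lay in that of cbt. The genes were not picked blindly. ush and cbt were chosen by the signal of the strong peak that lies inside ush, with the cbt start site nearest to it. Their ranks are therefore a description. The GATA genes were added as members of the GATA factor family, which includes pnr and srp, whose products act with Ush. No test is given for any of them.

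The data are chromatin immunoprecipitation and sequencing (ChIP-seq) peak lists from 3 biological replicates of a single group, with no second condition. The embryos of both sexes, 0 to 16 h old, came from a transgenic Drosophila melanogaster strain, HLHm7-GFP, in which the product of E(spl)m7-HLH carries GFP at its C-terminus, and an antibody against GFP was used. Whole embryos were used, so a peak cannot be placed in a cell type, and the peak lists measure no expression by which a tissue could be checked. The optimal set is the authors' list thresholded by irreproducible discovery rate (IDR), a measure of reproducibility between replicates. It equals the 2397 pooled regions of highest signal, and a single optimal peak need not rank high in each replicate. The pooled list and each replicate list hold 30000 regions, weak background regions included. Signal is the value that the authors' caller gave a region, on no stated scale. It is therefore compared only within a list, as a rank (rank 1 is the highest signal), and a replicate's 2397 highest-signal regions are called its top regions. The lists carry no read numbers, so depth is unknown.

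HLHm7 is a basic helix-loop-helix repressor of the Enhancer of split complex. Such proteins are made in response to Notch, recruit the corepressor Groucho and repress proneural genes. Ush is a zinc finger protein of the Friend of GATA (FOG) family, which does not act alone but binds GATA factors and changes what they do at their targets. GATA factors bind DNA at sites with the core GATA. With Pannier (pnr), Ush limits expression of the proneural achaete-scute genes in the dorsal thorax and acts in heart and dorsal ectoderm development. With Serpent (srp), the GATA factor of blood cells, fat body and endoderm, it restrains the formation of crystal cells, a blood cell type.

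Sequences are shown for the 5 ush peaks that were top regions in every replicate, as the summit base with 100 bp on either side (dm6, plus strand). Capitals mark the GATA core, which reads TATC on the other strand, and the E-box CACCTG, which reads CAGGTG on the other strand. They are followed by the strongest pooled region of any of the 5 GATA genes, upstream of srp, which was not an optimal peak.
ush peak of rank 2 (chr2L:480981-481181): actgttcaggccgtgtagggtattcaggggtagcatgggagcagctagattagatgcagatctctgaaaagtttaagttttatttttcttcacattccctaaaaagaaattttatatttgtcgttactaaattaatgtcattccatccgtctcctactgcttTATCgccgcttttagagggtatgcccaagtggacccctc
ush peak of rank 86 (chr2L:485776-485976): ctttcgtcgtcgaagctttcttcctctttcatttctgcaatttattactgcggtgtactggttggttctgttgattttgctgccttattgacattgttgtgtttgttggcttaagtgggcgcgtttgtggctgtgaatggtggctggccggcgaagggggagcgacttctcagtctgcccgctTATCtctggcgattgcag
ush peak of rank 166 (chr2L:479992-480192): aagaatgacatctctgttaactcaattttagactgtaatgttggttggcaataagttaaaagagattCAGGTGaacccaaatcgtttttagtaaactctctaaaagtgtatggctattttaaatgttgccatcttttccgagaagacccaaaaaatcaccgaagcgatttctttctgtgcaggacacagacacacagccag
ush peak of rank 414 (chr2L:520755-520955): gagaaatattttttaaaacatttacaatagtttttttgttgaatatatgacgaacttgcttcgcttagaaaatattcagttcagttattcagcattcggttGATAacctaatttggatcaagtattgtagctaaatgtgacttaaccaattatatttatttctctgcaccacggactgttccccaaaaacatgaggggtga
ush peak of rank 680 (chr2L:510510-510710): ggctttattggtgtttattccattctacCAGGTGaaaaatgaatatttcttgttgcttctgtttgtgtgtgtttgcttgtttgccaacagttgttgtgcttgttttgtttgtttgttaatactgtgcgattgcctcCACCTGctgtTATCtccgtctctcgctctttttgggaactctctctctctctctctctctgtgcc
srp region of rank 3103 (chr3R:15984504-15984704): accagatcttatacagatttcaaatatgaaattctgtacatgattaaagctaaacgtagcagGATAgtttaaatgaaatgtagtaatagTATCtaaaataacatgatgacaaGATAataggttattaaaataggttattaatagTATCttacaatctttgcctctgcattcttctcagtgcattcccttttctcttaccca

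ush (FBgn0003963) spans 476220 to 540560 on the plus strand of 2L (dm6), with 5 annotated transcripts that start at 4 sites. The peak by which it was chosen covered 480907 to 481272. Its optimal signal was 1506. It ranked 2 in replicate 1 (signal 464), 2 in replicate 2 (signal 667) and 5 in replicate 3 (signal 383), so it was among the strongest regions of every library. The replicate summits lay within 15 bp of each other, and the region was 366 bp wide, against a median of 384 bp in the optimal set. The peak lay in intron 1 of the long transcripts ush-RD and ush-RE, 4861 bp downstream of their TSS (transcription start site), and 9754 bp upstream of the start of ush-RB. It was 1393 bp upstream of cbt, a gene on the opposite strand that lies wholly within ush.

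Beside this peak, ush carried 7 weaker optimal peaks, which fell into groups along the gene. From 3 to 15 kb downstream of its 5′ end lay 5 of the 8 peaks, and the other 3 lay between 34 and 45 kb. The pooled list held no region at all from 24.1 to 33.4 kb. Each replicate list did hold regions in that stretch, none of them a top region. Beyond 45 kb the pooled list held only regions outside the optimal set, the last at 63.5 kb.

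**Figure D1:**
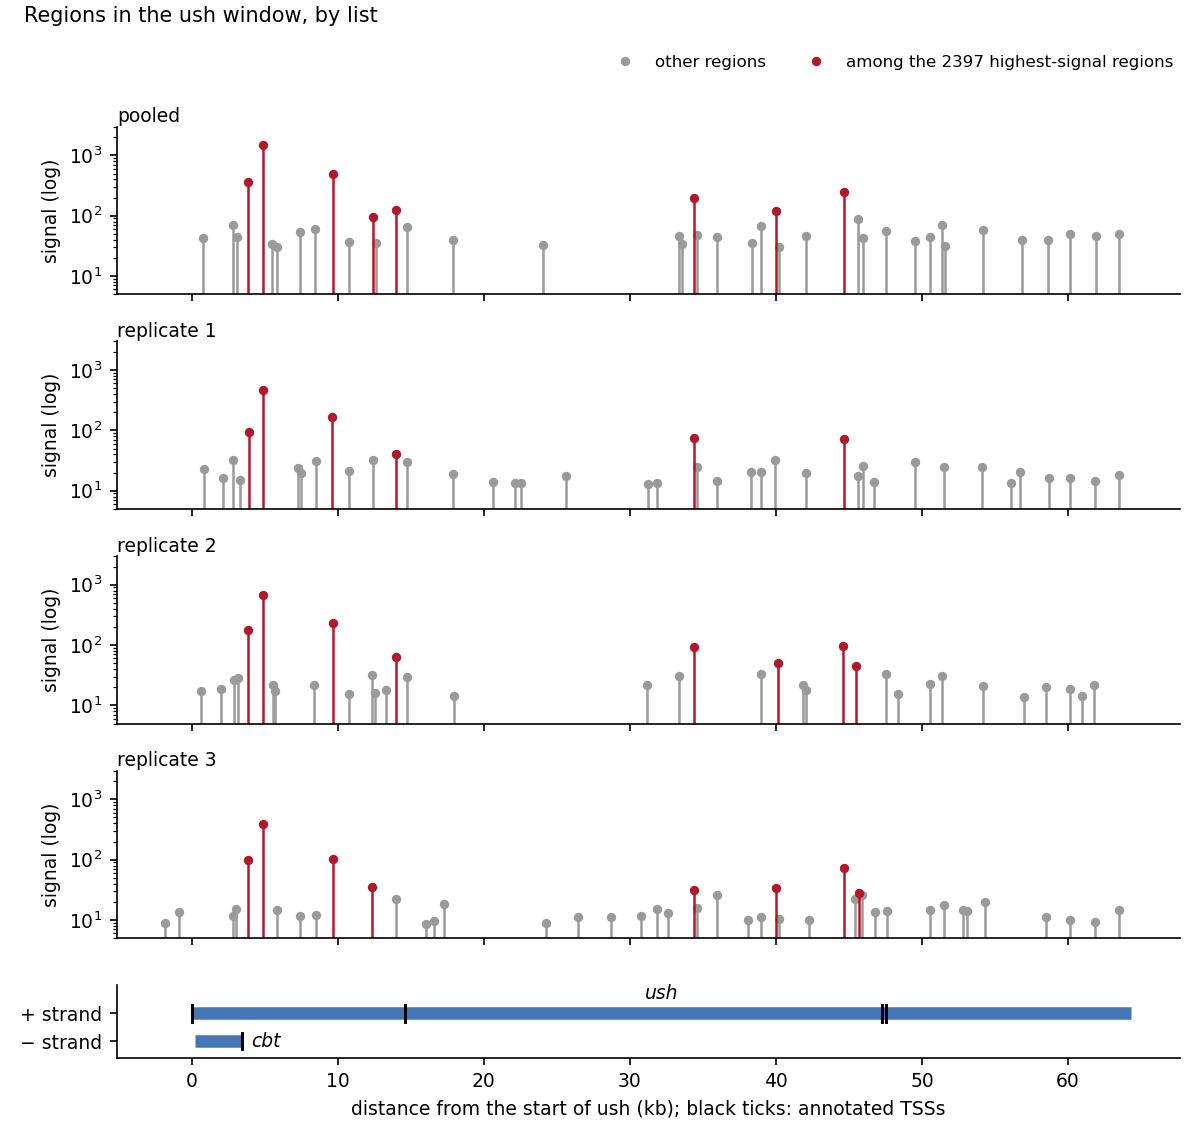
Signal of each region (log axis, the authors' own value, one panel per list) against the distance of its summit from the start of ush in kb, with ush, cbt and their annotated start sites drawn below. Red marks the 2397 highest-signal regions of a list, which in the pooled list are the optimal peaks; the peak near 4.9 kb is the highest in each panel, and no region of the pooled list lies between 24.1 and 33.4 kb.

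The next strongest peak, in the same intron and 9656 bp from the 5′ end of ush (485755 to 485973), had an optimal signal of 498 and rank 86. Its ranks were 84, 67 and 169 in replicates 1, 2 and 3. The peak 404 bp upstream of the cbt start (480024 to 480186; signal 365, rank 166) ranked 286, 111 and 180. Both were narrower than the strongest peak, at 219 and 163 bp, and both were high in every replicate.

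The distal group lay upstream of the short transcripts ush-RA and ush-RC. Its strongest peak (520663 to 521046; signal 245, rank 414), 2611 bp upstream of the start of ush-RA, ranked 509, 443 and 371 in replicates 1, 2 and 3. The peak at 510418 to 510801 (signal 194, rank 680) ranked 493, 497 and 1818. The replicates thus placed the former alike, whereas replicate 3 placed the latter well below the other libraries.

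The remaining 3 peaks had the lowest signals of the optimal ush peaks and were not top regions in every replicate. The peak at 489999 to 490382 (signal 123, rank 1504), 644 bp upstream of the start of ush-RB, ranked 1561, 1067 and 3255. Its summit falls in an exon of ush-RE, in the 5′ untranslated part, whereas the other 7 summits were intronic or upstream in every ush transcript. The peak at 516019 to 516402 (signal 120, rank 1558) ranked 2418, 1540 and 1559, and the peak at 488432 to 488815 (signal 95.7, rank 2201) ranked 2503, 3393 and 1499. Each of the 3 fell outside the top regions in at least 1 library. The last is the ush peak just inside the threshold, and the pooled region just outside it, at 521665 to 522048, ranked 2480 with a signal of 88.6, and 13989, 1820 and 2263 in the replicates.

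**Figure D2:**
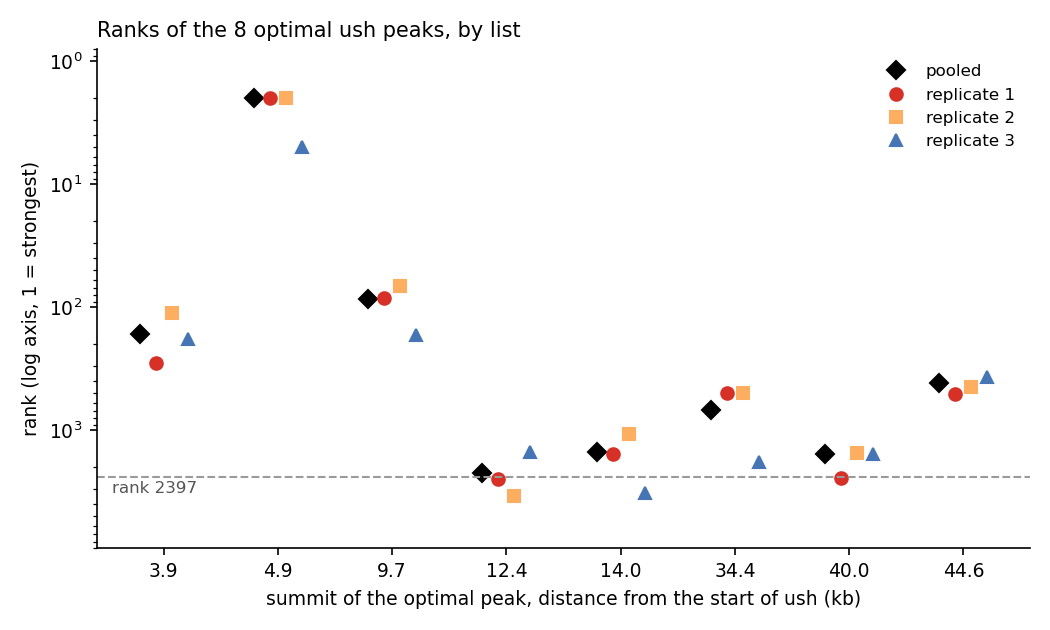
Rank of each of the 8 optimal ush peaks (log axis, 1 is the strongest) in the pooled list and in replicates 1 to 3, ordered by the distance of the summit from the start of ush in kb; the dashed line is rank 2397. The peaks at 3.9, 4.9, 9.7, 34.4 and 44.6 kb lie above the line in all 3 replicates, and the other 3 cross it in at least 1.

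All 8 optimal ush peaks had a region within 200 bp in each of the 3 full replicate lists, where 97.4% of all optimal peaks did. In the top regions of every replicate 5 of the 8 were found, against 59.9% of all optimal peaks. Neither share of the ush peaks stands apart from that of all peaks. The threshold of the top lists cuts through the weaker ush peaks.

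The number of peaks in ush was high among all genes. Of the protein-coding genes 17.1% carried an optimal peak by the same rule, and most bound genes (1911 of 2387) had just 1. Only 0.0502% of genes, 7 in number, had at least 8: CG1677 (12), Raf (11), kirre (10), Hr4 and shn (9 each), and rdx and ush (8 each). These were named after their counts were seen. The count depends on length. The ush span of 64341 bp is long, 53% of the 198 genes of that length or more were bound, and 2.53% of them had 8 or more peaks. Their median was 1 peak. Per length, the ush window held 12.1 peaks per 100 kb, against 1.91 on the arm 2L. This density was not particular to ush among the genes named. Per 10 kb of window, Raf (2.18), shn (1.49) and Hr4 (1.32) held more peaks than ush (1.21). Lower densities were those of rdx (1.19), CG1677 (0.947) and kirre (0.252). The strongest peak among the 6 other genes with 8 or more peaks ranked 40 (Raf). The higher rank of the strongest ush peak follows from the choice of ush by that peak and does not set it apart.

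**Figure D3:**
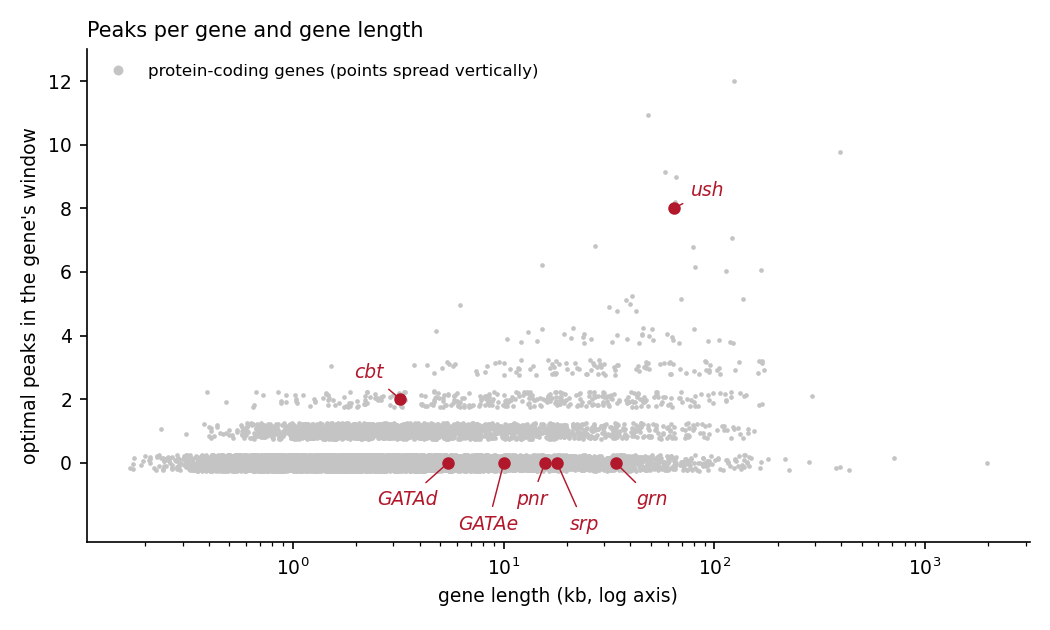
Number of optimal peaks in each gene's window against gene length in kb (log axis); each grey point is a protein-coding gene, spread vertically for legibility, and red points are the 7 genes described here. ush has 8 peaks and cbt 2, both shared with ush, and the 5 GATA genes have 0.

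The start sites of ush themselves were not strongly bound. Within 500 bp of the 5′ start shared by ush-RD and ush-RE no list held a region. At the start of ush-RB a region of pooled rank 4280 lay 118 bp downstream, with ranks of 2983 and 4122 in replicates 1 and 2 and no region in replicate 3. At the starts of ush-RA and ush-RC the pooled region ranked 6041, with ranks of 3209 and 9707 in replicates 2 and 3 and none in replicate 1. No region within 500 bp of a ush start site was therefore a top region in any replicate.

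cbt (FBgn0043364, 476446 to 479688 on the minus strand of 2L) encodes a zinc finger transcription factor of the Krüppel-like family with a role in dorsal closure of the embryo. Its 2 optimal peaks were both upstream of its single annotated start site, and inside the gene the strongest pooled region, 600 bp downstream of the start (signal 71.0, rank 3593), ranked 2423, 5475 and 15690 in the replicates, below the top regions in each. Without the 2 kb upstream, cbt would have no peak. Since cbt lies within ush, these data cannot assign the shared peaks to either gene.

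None of the 5 GATA factor genes had an optimal peak. Of the genes whose lengths fall within their range, from GATAd (5452 bp) to grn (34077 bp), 29.7% had an optimal peak, so an absence in 5 genes is a small count. In dm6, srp (FBgn0003507) spans 15986152 to 16004085, GATAe (FBgn0038391) 16009105 to 16019133 and pnr (FBgn0003117) 16026079 to 16041796 on the plus strand of 3R. grn (FBgn0001138) spans 8147368 to 8181444 on the minus strand of 3R, and GATAd (FBgn0032223) 10333734 to 10339185 on the plus strand of 2L. The nearest optimal peaks were 11.7 kb from srp, 34.6 kb from GATAe and 51.6 kb from pnr, all the same peak near Hel89B, 31.3 kb from grn, and 43.0 kb from GATAd. All 7 genes had at least 1 region in each full replicate list, which 57.8% of all genes and 87.1% of genes in the length range of the GATA genes also had. With top regions required in all 3 replicates, ush and cbt, which were chosen by a strong peak, remained, against 11.5% of all genes.

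**Figure D4:**
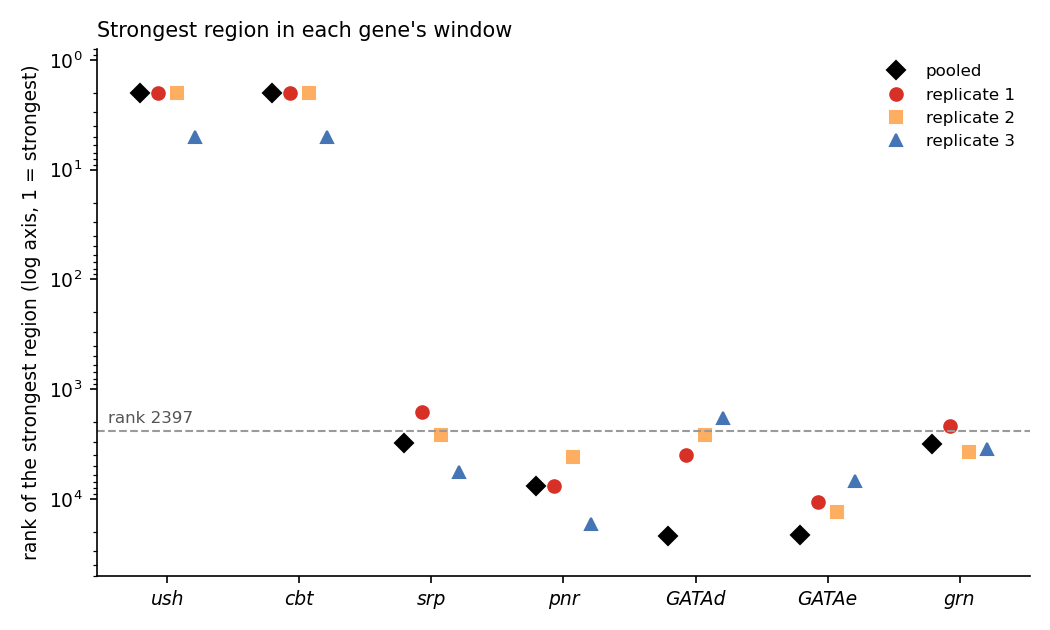
Rank of the strongest region in each gene's window (log axis, 1 is the strongest) in the pooled list and in replicates 1 to 3; the dashed line is rank 2397. ush and cbt share a region of rank 2, 2 and 5, whereas the GATA genes lie at rank 1619 or lower and none lies above the line in more than 1 replicate.

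Among the GATA genes, srp, grn and GATAd each had a top region in a single library. Of the genes in their length range 40.1% had a top region in at least 1 replicate. The strongest srp region lay 1548 bp upstream of its 5′ start (15984412 to 15984795 on 3R; pooled signal 77.2, rank 3103). It ranked 1619 in replicate 1 and 2636 in replicate 2, and replicate 3 had no region within 200 bp. A second srp region, 518 bp downstream of the start of srp-RH (pooled signal 67.7, rank 3924), was found in every replicate at ranks 8952, 6479 and 5741. The first was thus stronger but incomplete across libraries, and the second was weak in all of them.

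grn, the GATA gene grain, had its strongest pooled region inside the gene, 9694 bp downstream of the start (8171558 to 8171941 on 3R; signal 76.7, rank 3131). The nearest regions ranked 17000, 3749 and 13255 in replicates 1, 2 and 3, and replicate 1 had a second one within 200 bp, of rank 2542. A promoter region ranked 2148 in replicate 1, the top region of the gene, and 4462 in replicate 2, 433 and 408 bp upstream of the start. Replicate 3 had no region within 500 bp of the start, and its highest, of rank 3543, lay elsewhere in the gene. The libraries therefore differed in which stretch of grn ranked highest.

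GATAd had the strongest region of any GATA gene in replicate 3, of rank 1837 (signal 31.1), in its intron 1 and 1218 bp downstream of the start of GATAd-RA. Replicate 2 had a region 49 bp away, of rank 2637 (signal 36.5), which was also the highest in its GATAd window. Replicate 1 had no region there, and neither had the pooled list, whose nearest summit was 2456 bp away. In the pooled list the highest GATAd region ranked 21534 and lay nearest to the start of Cox10, a neighbouring gene.

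The GATAe and pnr windows held only weak regions. GATAe, a GATA factor of the endoderm and midgut, ranked no higher than 10561, 13120 and 6917 in replicates 1, 2 and 3 (signals 19.5, 19.3 and 15.9), and 21316 in the pooled list. For pnr the highest ranks were 7631, 4190 and 16966 (signals 21.6, 29.3 and 11.2). The strongest pooled pnr region (16025811 to 16026194 on 3R; signal 50.9, rank 7699) lay 76 bp upstream of the start of pnr-RD, with ranks of 4190 and 23013 in replicates 2 and 3 and no region in replicate 1. The 3 libraries disagreed on the position of the highest region in both windows.

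srp, GATAe and pnr are neighbours on 3R, transcribed in the same direction, with gaps of 5019 and 6945 bp. The 55.6 kb from the start of srp to the end of pnr hold no other protein-coding gene. With the 2 kb upstream of srp this stretch held 0 optimal peaks and 21 pooled regions.

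**Figure D5:**
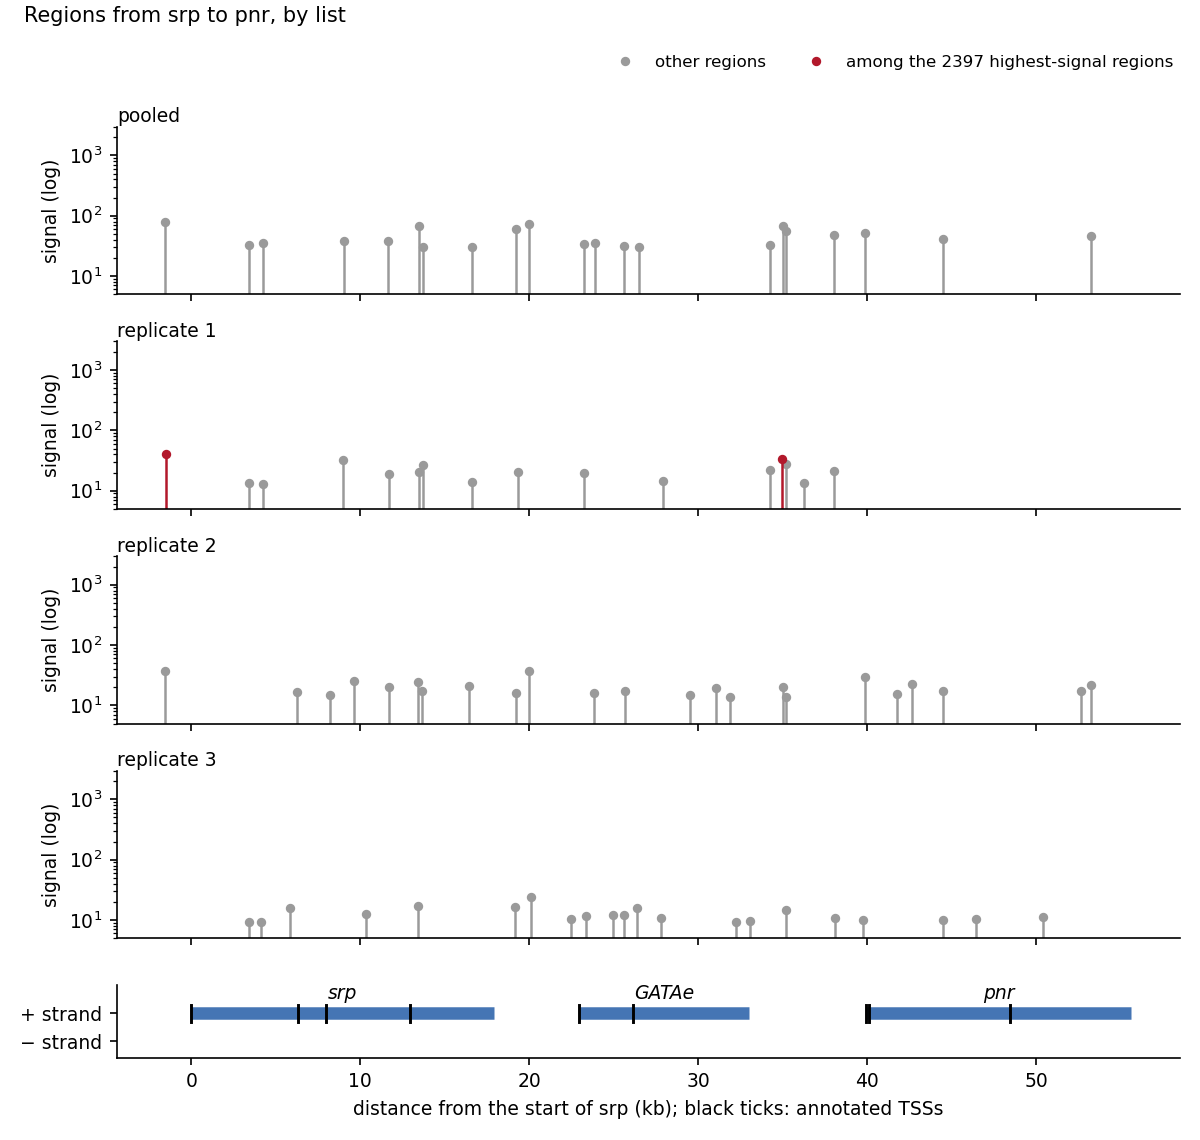
Signal of each region (log axis, the same range as for ush, one panel per list) against the distance of its summit from the start of srp in kb, with srp, GATAe, pnr and their annotated start sites below. Red marks a list's 2397 highest-signal regions, which occur only in replicate 1, upstream of srp and between GATAe and pnr.

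Weak regions were seldom found in every library, both in the GATA genes and genome-wide. Of the 31 pooled regions in the windows of the 5 GATA genes, 3 (9.68%) had a region within 200 bp in every replicate, against 17.2% of the 27603 such regions genome-wide. The difference was not tested. In ush, 11 of its 33 non-optimal pooled regions (33.3%) were found in every replicate. The pooled list held 0.618 regions per kb in the ush window and from 0.226 (pnr) to 0.401 (srp) in those of the GATA genes, against 0.224 per kb on the 6 arms together.

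Both strands were searched for 12 motifs in the summit base and 100 bp on either side. The core GATA, which is short and frequent, was found in 6 of 8 ush windows, and in 77.5% of the windows of all optimal peaks and 67.8% of windows 750 bp away from summits. The longer forms were rarer. AGATAA was in 2 ush windows and GATAAG in 1, against 13.2% and 11.2% of all optimal windows, and the GATAAG overlaps an AGATAA on the same strand. The 2 windows are those of ranks 86 and 680 shown above.

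The remaining motifs were counted in the same way. Those tied to E(spl) proteins come first, up to the N-box, and the motifs after it were not chosen as E(spl) sites. With 8 windows a count of 0 or 1 is not resolved from such shares. CACGTG and CACGCG occurred in 0 of the 8 ush windows, against 2.88% and 3.21% of optimal windows, and the N-box CACNAG in 1, against 21.7%. With 150 bp on either side CACNAG was in 3 ush windows, against 31.6%, with 2 matches in the strongest, and CACGTG in 1, against 4.26%. The E-box CACCTG was in 2 ush windows, those of ranks 166 and 680, against 6.09%. CANNTG, which includes CACGTG as well as CACCTG, was in 4 windows, against 64.4%. Within 100 bp of its summit the strongest ush peak held 1 GATA core and 1 CANNTG and none of the other 10 motifs. GAGAGA was in 1 window, against 10.9%, and with 150 bp on either side in 4, against 18.9%. With 100 bp again, CAGGTA was in 1 window, against 3.96%, TGGGAA in 2, against 11.6%, and TATCGATA in 0, against 3.38%. The window of rank 680 held 9 GAGAGA matches on the other strand, 8 of them overlapping in the repeat at its end. A motif match is a description of letters and does not show a bound site.

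The strongest srp region, shown above, held 4 GATA cores in this stretch. Of the 27603 non-optimal pooled regions 5.18% held 4 or more, and their mean was 1.14. The strongest pnr region held a DNA replication-related element (TATCGATA), which includes a GATA core on each strand and was found in 0.931% of these regions. The strongest pooled region of GATAd held 3 GATA cores, and those of GATAe and grn held none.

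The genes with the most similar strongest peak, by the rank nearest to that of ush among the optimal peaks, were CG14100 (rank 1), px (rank 3), eIF2Bbeta and Ugalt, which share a peak (rank 4), and ph-p (rank 6), over 3 replicates. The CG14100 peak ranked 1 in each replicate. The px peak ranked 4, 3 and 4, that of Ugalt 5, 4 and 3, and that of ph-p 7, 8 and 2. With 2, 2 and 5, the replicate ranks of ush overlapped those of px, Ugalt and ph-p, so their order is not resolved. Their summits were at -86 (CG14100), -195 (px), -31 (Ugalt) and -492 bp (ph-p) from the nearest start site, closer than the 1393 bp between the ush peak and the cbt start. px and ph-p had 4 optimal peaks each, and the others 1.

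Genes grouped by tissue, process, family or cofactor, chosen for the roles of ush, cbt and the GATA factors, were read from 9 lists. Of their genes 112 matched the annotation. An optimal peak was found at 33 of the 112, 29.5%. This is near the 29.7% given above for genes of 5452 to 34077 bp, and the median gene length of 8 of the lists, from 5972 to 17686 bp, lay in that range. No list was tested. Unbound genes are named below after their values were seen. With a summit required within 1 kb of a start site, each of the 8 lists with a bound gene had fewer, from 0 to 3.

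In the list of blood cell regulators 4 of 15 genes were bound. The first was zfh1, a zinc finger homeodomain repressor (signal 262, rank 365; 601, 316 and 305 in the replicates), followed by Pvf3, a growth factor gene (175, rank 809), Stat92E, the transcription factor of JAK/STAT signalling (140, rank 1223), and the receptor gene Pvr (92.1, rank 2337). The crystal cell factor lz, the plasmatocyte factors gcm and gcm2, and kn had none. Of 13 genes of differentiated hemocytes, among them Hml, Pxn, NimC1 and PPO1, 0 were bound, but 3 were with 5 kb upstream and 1 by the nearest start site. Their median length, 4771 bp, is below the range of the 29.7% share. The Pvr peak was a top region in replicate 2 alone (ranks 19097, 1273 and 14218).

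Of the heart and dorsal mesoderm genes 2 of 13 were bound. The Mef2 peak (685, rank 42) lay 171 bp upstream of the start of Pdrg1, and the tin peak (105, rank 1886) lay 145 bp upstream of tin, which encodes a homeodomain factor that acts with pnr in the heart. The T-box genes Doc1, Doc2, Doc3, mid and H15 had none. Assigning peaks by the nearest start site instead made 7 of the 13 bound, and 1 was bound without the 2 kb upstream. The count was also 1 when replicate 2 or replicate 3 was left out and a top region was required in both of the others. The tin peak ranked 2966 in replicate 1, outside its top regions.

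Of the amnioserosa and dorsal ectoderm genes, tissues in which pnr and ush act, 7 of 16 were bound. Mad (352, rank 178) and shn (320, rank 229), nuclear mediators of Dpp signalling, came first, then Ance (295, rank 279), whose peak is at the start of Smg5, and dpp itself, the ligand gene (268, rank 357). The peaks of Mad and shn lay 668 and 310 bp upstream of their nearest start sites. zen, peb, tup and Kr had none.

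Of the endoderm and midgut genes 5 of 12 were bound, with fkh (338, rank 197), a forkhead factor gene, bowl (206, rank 592), cad (161, rank 963; nearest start site that of Pomp) and bin (111, rank 1734) first. The count was 3 without the 2 kb upstream, and also 3 when any 1 replicate was left out and a top region was required in both of the others. Of the notum prepattern and proneural genes 2 of 14 were bound, namely sr (147, rank 1122) and Bx (122, rank 1519). The count was 1 under the same requirement with replicate 2 or replicate 3 left out. The Bx peak ranked 18523 in replicate 1, outside its top regions. The targets shared by Pannier and Ush, ac and sc, had none. Of 8 genes of the KLF and Sp family, to which cbt belongs, only luna was bound (137, rank 1278; nearest start site that of CG43188), and 2 were with 5 kb upstream.

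Of the JNK and dorsal closure genes 6 of 12 were bound. They were led by ena, an actin regulator (259, rank 376), msn, a kinase gene whose peak is at the start of RpL8 (232, rank 470), jar (177, rank 795) and puc, the JNK phosphatase gene (165, rank 904). In the list of corepressor and chromatin protein genes, drawn up for FOG proteins, 7 of 12 were bound. Su(var)205, which encodes heterochromatin protein HP1a, had the strongest peak (735, rank 39; 41, 36 and 44 in the replicates), with the start of CG8360 nearest to it. HDAC1 (299, rank 266), Mi-2 (235, rank 458) and Sin3A (177, rank 797) followed. The HDAC1 peak lay nearest to the start of Src64B (1294 bp), and that of Mi-2 to the start of Su(Tpl) (2427 bp). CtBP, a corepressor that FOG proteins bind, carried a peak of rank 1976 (signal 103). With assignment by the nearest start site, 4 of the 12 were bound.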

How the data were processed

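ChIP-seq peak lists of 3 biological replicates of whole HLHm7-GFP embryos were used, in dm6 coordinates. Per the deposited descriptions, each replicate list was made from its alignment and a control alignment that the replicates share, the pooled list from all replicates, and the optimal set from these lists by IDR. Neither the software that aligned reads and called regions nor the IDR cutoff is named in those descriptions. Signal values, as deposited, have no stated scale, so only their order inside each list was used. The deposited q-values come as −log10, and 1056 optimal peaks share the highest, 3.32. Summits were placed by adding the deposited offset to the region's first base. A check found that the optimal set equals the 2397 pooled regions of highest signal. Lists on dm3 were not used. Depth is unknown.

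Genes were those of Ensembl release 115, and the sequence was that of RefSeq for the same build, after a check that regions end within their arms. A region was matched to the nearest summit of another list within 200 bp, so a stronger region slightly farther away can be passed over. Flank windows within 300 bp of a summit were left out. Of the list symbols, 2 had no match and were left out. Members and lists were chosen with earlier results of these data known, and the results are descriptions with no test. Genes named from a list are the 4 bound with the highest signal; unbound genes, CtBP and the genes with 8 or more peaks were named after their values were seen. Alternatives changed the gene window, the peak threshold, the matching distance, the length of the top lists, the ranking, the motif window and the replicates. Gene assignment, matching and motif counting were tested on simulated data. Software was Python 3.11.15, NumPy 2.4.6, pandas 2.3.3 and Matplotlib 3.10.9.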

Additional observations from a re-analysis of the deposited data

How the results depend on the processing

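Of the 7 genes, 2 had an optimal peak under 9 of the 11 alternatives, leaving out each replicate included. The count was 1 without the 2 kb upstream (ush alone) and 7 with the pooled list in place of the optimal set. The 2 genes, ush and cbt, were chosen by the peak of rank 2 that they share. A stricter peak threshold or a wider gene window could therefore not lose them, and the unchanged count there does not show stability. No GATA gene gained an optimal peak under any alternative but the pooled list. The number with a region in all 3 replicate lists, 7, was 4 when a summit within 1 kb of a start site was required, and 5 to 7 under the other alternatives. The number with a top region in all 3 replicates, 2, was 1 without the 2 kb upstream (ush), 1 within 1 kb of a start site (cbt), 4 with the top 5000 regions of each replicate and 5 with the top 10000. The strongest ush peak, which was chosen by its signal, kept rank 2 by width times signal, and the median of its replicate ranks was 2. Its rank in the pooled list is the same by construction. Its rank by q-value, also 2, follows the signal, since ties were broken by signal and it shares the highest q-value. With 50 bp between summits 6 of the 8 ush peaks were found in every replicate. Bound list genes numbered 33, 13 within 1 kb of a start site, and 26 to 38 otherwise. The GATA core was in 6 of 8 ush windows, and in 3 with 50 bp on either side of the summit. Of the values for single lists and motifs, 31 of 94 changed by over 1.5 times or changed to or from 0. The number of libraries, 3, and the unknown depth limit what the weak regions can show.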

Other observations

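Between the windows of srp, GATAe and pnr lay regions that belong to none of these genes by the rule used. Downstream of srp, 19.98 kb from its start, a region ranked 3430 in the pooled list, 2523 in replicate 2 and 2949 in replicate 3. Replicate 1 had no region within 200 bp of the pooled summit, and its nearest, at 19.313 kb, ranked 8887. Downstream of GATAe, 35.0 kb from the start of srp, a region ranked 3846 in the pooled list and 2218 in replicate 1, where it was a top region. In replicate 2 it ranked 11956, and in replicate 3 a region within 200 bp of the pooled summit ranked 8570. Neither was an optimal peak.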
